A study of Mus musculus with 7 samples.

Results

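The 5′ domain of 18S ribosomal RNA (rRNA) was examined for crosslinks recovered with DENR, in sites mapped by individual-nucleotide resolution crosslinking and immunoprecipitation (iCLIP). Its members were all crosslink sites, in any of the 7 deposited lists, on the plus strand of chromosome 17 between positions 39846353 and 39846952 of mouse build mm10. These are nucleotides 1 to 600 of the 1849-nt 18S copy that is assembled there, and nucleotide numbers below count from the 5′ end of that copy. The rule used position only. It found 908 list entries at 258 distinct nucleotides, out of 42120 entries at 23288 distinct positions in the whole series.

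The cells were NIH3T3, a mouse embryonic fibroblast line, and all libraries came from cells irradiated with ultraviolet light of 254 nm at 150 mJ/cm2. In 3 libraries (DENR overexpressing) the cells had been transiently transfected with Denr in a FLAG-Venus-pLenti6 vector. In 2 libraries (non-transfected) the anti-DENR antibody captured the endogenous protein, and more culture dishes went into each of these immunoprecipitations than into those after transfection. In the other 2 libraries (IgG) an IgG replaced the antibody as control. Neither the sample titles nor the paper's methods state whether these cells were transfected or how many dishes were used. No cells lacking DENR were analysed, and no source used here says whether the replicates came from separate cultures, so p-values measure the spread between libraries only.

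DENR acts together with MCTS1 in translation reinitiation, in which the small ribosomal subunit resumes scanning after a short upstream open reading frame has been translated. Translation can then start again at the main coding sequence. 18S rRNA is the RNA of the small subunit and folds into several domains. Its 5′ domain, taken here as the first 600 nucleotides, forms much of the body of the subunit, the central domain forms the platform, where DENR–MCTS1 is placed by structures of the complex, and the 3′ major domain forms the head. In iCLIP, light fixes proteins to RNA that they touch and the stop of reverse transcription marks the crosslinked nucleotide. In the authors' view, the size of the complexes cut out likely points to DENR with MCTS1 on RNA rather than DENR by itself. A site is therefore not assigned to DENR alone. Each entry has a score, a whole number that gives the height of the site. Only sites that passed the false discovery threshold of the authors are listed, each library on its own, so the number of sequenced molecules is unknown and an unlisted nucleotide is not shown to be free of crosslinks.

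The sequences that follow surround the highest nucleotides of the domain and are shown because most of the shared sites fall in them. They are written 5′ to 3′ on the RNA strand (plus strand of mm10, T for U), and capitals mark nucleotides listed in all 5 DENR libraries. The name gives the central nucleotide, at the 11th letter.
nt106: ctcAttaaatcagttatGgtt
nt234: CATTTATCAGATCAAAacCAA
nt294: gccggcgGCTTTGGTGACTct
nt374: cctaTcaAcTTTcGAtgGTag
nt532: GacgaAAAATAAcAATacagg
nt547: TacaggaCTCTTTcgaggccc
They cover chr17:39846448-39846468, chr17:39846576-39846596, chr17:39846636-39846656, chr17:39846716-39846736, chr17:39846874-39846894 and chr17:39846889-39846909. The last 2 overlap. The stretch around nucleotide 106 shows 2 capitals, since non-transfected 1 listed few of its nucleotides, whereas the stretch around nucleotide 234 is capital nearly throughout. In GENCODE release M21 the only gene model over nucleotides 1 to 600 is the rRNA gene CT010467.1, which is annotated on the minus strand, opposite to the 18S sequence and to every site described here. The long non-coding RNA gene Gm42418 on the plus strand begins at nucleotide 606. No 18S nucleotide carried a site on the minus strand in any library, and 0 annotated transcripts outside this locus matched the 600 nucleotides (blastn, e-value limit 1e-05).

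All 5 DENR libraries listed sites in the domain, and neither IgG library did. The DENR overexpressing libraries listed 142, 226 and 197 sites there, with summed scores of 899, 6299 and 3653. The non-transfected libraries listed 118 and 225 sites, with summed scores of 520 and 3246. The site numbers of the 2 kinds of library therefore overlapped, and replicate 1 was the lowest of its group in both. These same libraries also had the shortest lists of the 5, with 4012 and 4324 sites against 16137, 10209 and 7185 in DENR overexpressing 2 and 3 and non-transfected 2.

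Relative to all listed sites, the domain held 3.54%, 1.40% and 1.93% in the DENR overexpressing libraries (95% Clopper-Pearson intervals 2.99 to 4.16, 1.22 to 1.59 and 1.67 to 2.22). It held 2.73% and 3.13% in the non-transfected libraries (2.26 to 3.26 and 2.74 to 3.56). These intervals cover counting error only, since neighbouring sites are not independent. The group means were 2.29 ± 1.11% (SD, n = 3) and 2.93 ± 0.285% (SD, n = 2), a difference of -0.64 percentage points that was smaller than the spread within the overexpressing group and lay at -1.27 without DENR overexpressing 1 and -0.20 without DENR overexpressing 2 (p = 0.6 and 0.8 after adjustment, exact permutation of the libraries, two-sided). With 3 against 2 libraries the smallest possible p is 0.2.

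Within 18S rRNA the domain held a similar portion of sites in every DENR library. The domain makes up 600 of the 1849 nt of the copy, and site density per nucleotide is compared below. It accounted for 34.1%, 29.2% and 31.2% of 18S sites after overexpression (29.6 to 38.9, 26.0 to 32.5 and 27.6 to 35.0) and for 33.2% and 29.9% without transfection (28.4 to 38.4 and 26.7 to 33.3). The means were 31.5 ± 2.50% (n = 3) and 31.6 ± 2.35% (n = 2), and the difference of -0.07 percentage points was far below the spread between libraries (p = 1 before and after adjustment, exact permutation, two-sided). Its portion of the 18S score was lower, at 14.6%, 19.0% and 17.2% after overexpression and 20.4% and 15.8% without. The means of 16.9 ± 2.26% (n = 3) and 18.1 ± 3.32% (n = 2) differed by -1.17 percentage points (p = 0.8 and 0.914 after adjustment, exact permutation, two-sided). For both of these small differences the sign turned when single libraries were left out, as given at the end.

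The IgG lists were short, which limits what their lack of sites shows. IgG 1 listed 19 sites, 5 of them on 18S rRNA, and IgG 2 listed 234 sites, 23 of them on 18S rRNA. For IgG 1, a count of 0 of 5 18S sites leaves an upper 95% bound of 52.2%. For IgG 2, 0 of 23 leaves one of 14.8%, and the share that 3 counts would make is 13.0%. The bound for IgG 2 lies below the portions of 18S sites measured in the DENR libraries, and the bound for IgG 1 does not. Both bounds treat sites as independent, yet 11 of the 23 IgG 2 sites lay at nucleotides 1101 to 1200, so they may be too low. By score, the domain held 17.4 ± 2.39% of the 18S signal in the DENR libraries (n = 5) and 0% in both IgG libraries (exact permutation test, two-sided, p = 0.0952, the smallest possible with 5 against 2, adjusted p = 0.190). Of all listed sites it held 2.55 ± 0.874% (n = 5) against 0% (exact permutation, p = 0.0952, adjusted p = 0.190). For this share the upper 95% bounds were 17.6% in IgG 1 and 1.56% in IgG 2, and the latter lies above the 1.40% of DENR overexpressing 2.

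In a comparison chosen after the values were seen, each DENR list was cut to its 234 highest sites, the length of the IgG 2 list. The domain then kept 11, 13 and 10 sites in the DENR overexpressing libraries and 10 and 11 in the non-transfected libraries, against 0 in IgG 2. Counted over the 23 highest 18S sites of each DENR list, as many as IgG 2 listed, the domain held 0, 3 and 1 sites after overexpression and 5 and 0 without. At that depth 2 of the 5 DENR libraries also had no site there. Over all positions of the series listed in a DENR library, 0.95% were also listed in an IgG library. This was 0 of 258 nucleotides in the 5′ domain and 3.87% of the nucleotides in the rest of the 18S copy.

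The score per nucleotide was lower in the 5′ domain than in the rest of 18S rRNA in all 5 DENR libraries, while the comparison of site density depended on how sites were counted. Per 100 nt, the domain had 23.7, 37.7 and 32.8 sites after overexpression and 19.7 and 37.5 without, against 21.9, 44.0 and 34.7, and 19.0 and 42.2, over nucleotides 601 to 1849. Compared within each library, the log2 ratio of site density was -0.06 ± 0.14 (SD, n = 5), positive in 2 of 5 libraries (exact sign-flip permutation test, two-sided, p = 0.375, adjusted p = 0.6). It was -0.51 with sites of a score of at least 10 and 0.34 with sites within 15 nt merged (exact sign-flip permutation, p = 0.0625 for both, the smallest possible), so no direction can be given. The score per nucleotide was 1.50, 10.5 and 6.09 after overexpression and 0.867 and 5.41 without, against 4.23, 21.4 and 14.1, and 1.62 and 13.9, in the rest. Here the log2 ratio was -1.20 ± 0.24 and negative in 5 of 5 libraries, between -1.50 and -0.90 (exact sign-flip permutation, p = 0.0625, the smallest possible with 5 libraries, adjusted p = 0.190). Most of this difference lay in 1 window outside the domain. The 100 nt from nucleotide 1073 to 1172 held 57.3%, 32.3% and 45.9% of the 18S score after overexpression and 47.6% and 37.5% without, and 100% and 60.3% in IgG 1 and 2. Without this window the log2 ratio of score density was -0.19 (exact sign-flip permutation, p = 0.3125) and that of site density 0.25 (p = 0.1875). At nucleotides 1201 to 1849 alone the score per nucleotide was 0.767, 15.9 and 7.12 after overexpression and 0.636 and 8.45 without. This was below the domain in DENR overexpressing 1 and non-transfected 1 and above it in the others.

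**Figure D1:**
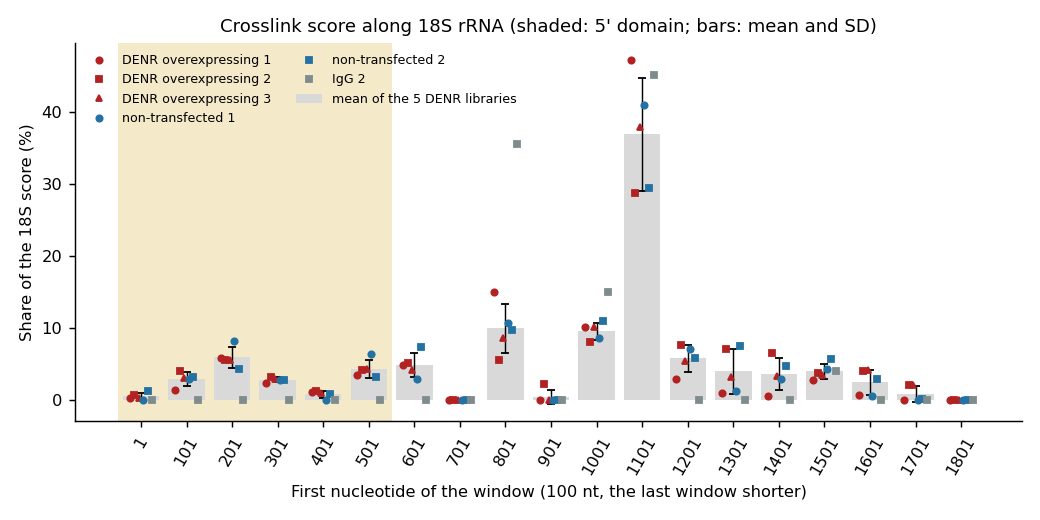
Share of the summed 18S score (y axis, percent) in windows of 100 nt along the copy (x axis, first nucleotide of the window). Points are libraries, bars and whiskers the mean and SD of the 5 DENR libraries, and the shaded windows are the 5′ domain, whose highest window (nucleotides 201 to 300) held 5.93% against 36.9% in the window from 1101. IgG 1, with 5 sites on 18S rRNA, is not drawn.

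Among the 19 windows of 100 nt, those of the 5′ domain ranked from 4th to 16th by mean share of 18S score. Nucleotides 201 to 300 led with 5.93 ± 1.42% (n = 5), and nucleotides 501 to 600 followed with 4.33 ± 1.26%. The lowest were nucleotides 1 to 100 with 0.525% and nucleotides 401 to 500 with 0.846%. Within each library nucleotides 201 to 300 held more than nucleotides 501 to 600, by 1.13 to 2.46 percentage points (mean 1.60 ± 0.543, SD, n = 5). This pair was picked by its values, and the lead depends on the window borders. Nucleotides 201 to 300 took in sites of both 216–250 and 278–311, stretches described below. For single stretches, 517–549 held 4.20 ± 1.41% of the 18S score and 216–250 held 3.88 ± 0.782%.

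The domain's highest single nucleotide was never among the first in a library. It was nucleotide 234 in DENR overexpressing 1 (score 45), 374 in DENR overexpressing 2 (349) and non-transfected 2 (102), 547 in DENR overexpressing 3 (164) and 532 in non-transfected 1 (30). These scores ranked 25, 11, 22, 10 and 27 among the 18S sites of DENR overexpressing 1, 2 and 3 and non-transfected 1 and 2. The median site had a score of 3, 13 and 10 after overexpression and 2.5 and 10 without. Sites of score 1 numbered 39, 23 and 23, and 40 and 20, so the thinnest entries were most numerous in both replicate 1 libraries.

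**Figure D2:**
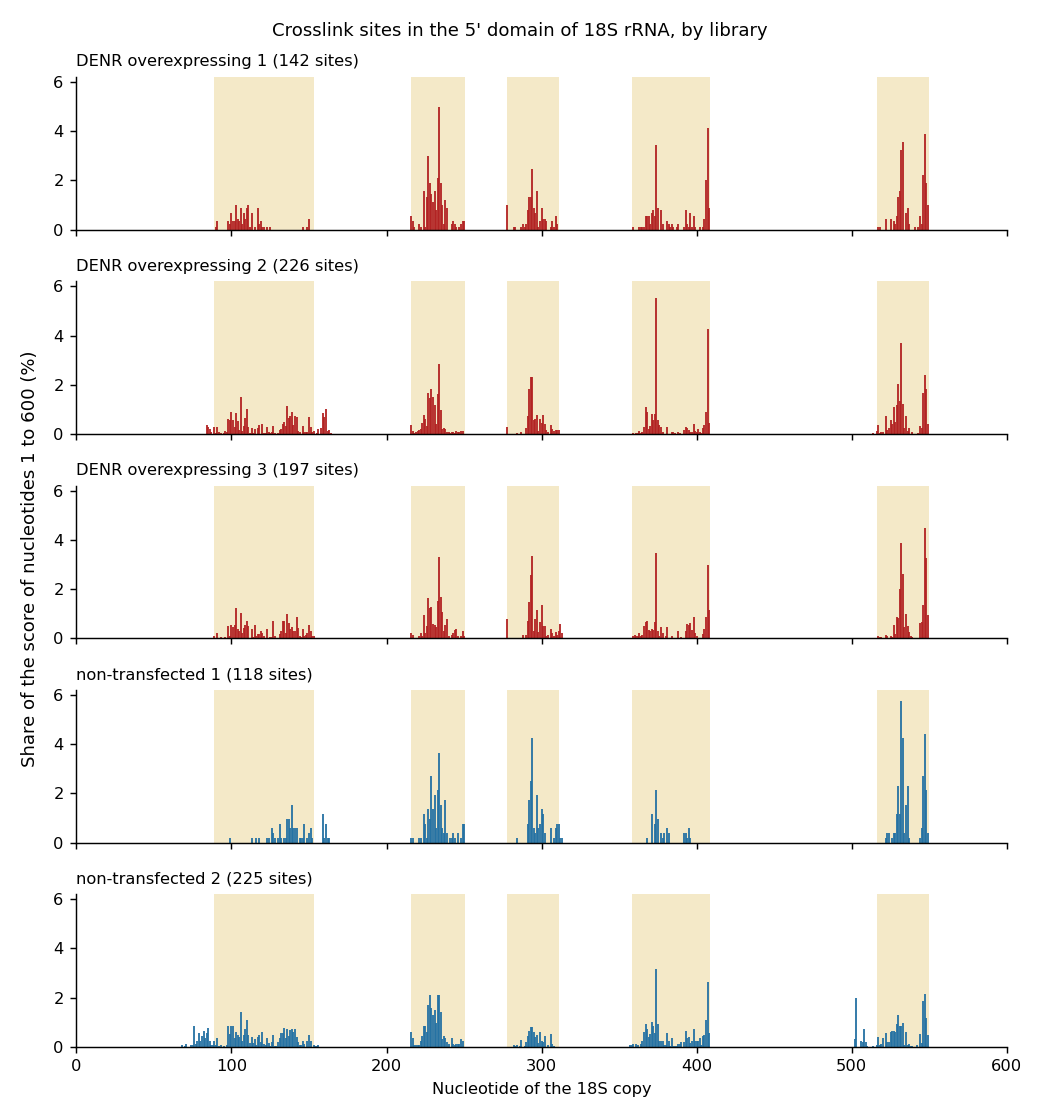
Share of the domain's summed score (y axis, percent) at each listed nucleotide (x axis) in the 3 DENR overexpressing (red) and 2 non-transfected (blue) libraries. Shading marks the 5 stretches, defined by sites in at least 3 of these same libraries, which held 96.5 ± 3.74% of the score. Nucleotides 1 to 67, 409 to 501 and 550 to 600 had no site.

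Sites were not spread evenly. Nucleotides listed in at least 3 DENR libraries, joined where they lay at most 5 nt apart, formed 5 stretches, at nucleotides 89–153, 216–250, 278–311, 359–408 and 517–549. Together they cover 217 nt, or 36.2% of the domain, and held 100%, 95.5% and 99.2% of its score after overexpression and 97.1% and 90.6% without. The stretches were defined by sites in these same libraries, so a high share was largely built in and shows nothing further. The share of each stretch overlapped between overexpressing and non-transfected libraries in all 5 cases. Taking any site in any library, the listed nucleotides fell into blocks that spanned 273 nt, and 327 nt lay between and beyond them.

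The stretch at nucleotides 517–549 (chr17:39846869-39846901) held 23.7%, 22.2% and 25.2% of the domain's score after overexpression and 31.3% and 16.6% without (23.8 ± 5.33%, n = 5). It contains the nucleotide with the lowest mean rank in the domain, 547, in the run CTCTTT printed above. Its scores were 35, 152 and 164 after overexpression and 23 and 70 without, or 0.609 ± 0.229% of the 18S score. The neighbours 546 (20, 106 and 49, and 14 and 60) and 548 (17, 114 and 119, and 11 and 38) were also listed throughout. A second summit lay at the adenines 532 and 533, in the AAAATAA run. Nucleotide 532 had scores of 29, 233 and 142 after overexpression and 30 and 27 without. In non-transfected 1 it was the domain's highest site, while in non-transfected 2 it ranked 31st, so the 2 libraries of this group stood farther apart than the 3 overexpressing ones.

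The stretch at nucleotides 216–250 (chr17:39846568-39846602) held 28.4%, 18.2% and 18.9% after overexpression and 25.2% and 21.7% without (22.5 ± 4.29%). It had the most nucleotides shared by all libraries. Of its 35 nucleotides, 25 were listed in all 5 DENR libraries, and it had 29, 34 and 32 sites after overexpression and 28 and 33 without. Its highest nucleotide, the adenine 234, had scores of 45, 178 and 121 after overexpression and 19 and 68 without (0.583 ± 0.169% of the 18S score). Nucleotides 227, 229 and 233 of the same run were among the 12 with the lowest mean rank.

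The stretch at nucleotides 278–311 (chr17:39846630-39846663) held 14.8%, 13.5% and 16.3% after overexpression and 19.4% and 7.21% without (14.2 ± 4.51%). Its summit lay on the thymines 293 and 294 of the run GCTTTGG. Nucleotide 294 had scores of 22, 145 and 122 after overexpression and 22 and 26 without. Non-transfected 1 had the highest share of 18S score at this nucleotide and non-transfected 2 the lowest, with the overexpressing libraries between them.

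The stretch at nucleotides 359–408 (chr17:39846711-39846760) held 21.5%, 21.1% and 19.4% after overexpression and 8.85% and 21.9% without (18.5 ± 5.49%). Its summit was nucleotide 374, inside ACTTTCG, with scores of 31, 349 and 126 after overexpression and 11 and 102 without (0.616 ± 0.252% of the 18S score). A second summit closed the stretch at the cytosine 407, in the sequence ccatggtgaccacgggtgacg (nucleotides 397 to 417), printed without capitals because none of its nucleotides was listed in all 5 libraries. The scores of nucleotide 407 were 37, 268 and 109 after overexpression and 85 in non-transfected 2, where it ranked 2, 2, 7 and 2 in the domain, and it was not listed in non-transfected 1. That library had no site beyond nucleotide 396 in the stretch, and its 5 sites at nucleotides 384–408 held 1.73% of its domain score, against 8.51% to 11.0% in the other 4.

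The stretch at nucleotides 89–153 (chr17:39846441-39846505) was the longest and flattest, with 11.7%, 20.6% and 19.4% after overexpression and 12.3% and 23.2% without (17.4 ± 5.16%). It had 64, 60 and 61 sites in DENR overexpressing 2 and 3 and non-transfected 2, but 29 in both DENR overexpressing 1 and non-transfected 1, and only 7 of its nucleotides were listed in all 5. The 2 libraries with 29 sites had them at opposite ends. In DENR overexpressing 1, 24 sites with 10.8% of the domain's score lay at nucleotides 89–121 and 5 sites with 0.89% at 122–153. In non-transfected 1, 4 sites with 0.769% lay at nucleotides 89–121 and 25 sites with 11.5% at 122–153. The other 3 libraries had both parts, at 9.77% to 13.0% and 9.62% to 10.2%. These 2 libraries had the lowest domain scores of the 5, and the part of list length in the difference was not tested.

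**Figure D3:**
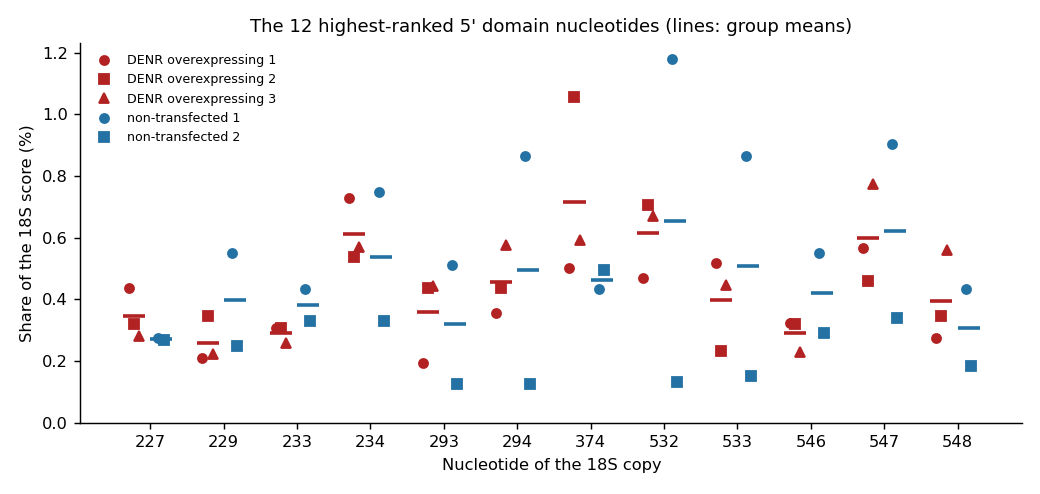
Share of the 18S score (y axis, percent) at the 12 nucleotides with the lowest mean rank (x axis). Points are libraries, with overexpressing in red and non-transfected in blue, and short lines are group means; at nucleotide 532 the 2 non-transfected libraries lie at 1.18% and 0.131%, on either side of the overexpressing ones.

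The 12 nucleotides with the lowest mean rank of score were, in that order, 547, 234, 374, 532, 546, 233, 533, 294, 548, 227, 229 and 293. They made up 33.6%, 28.9% and 32.7% of the domain's score after overexpression and 37.9% and 19.2% without (30.4 ± 7.07%, n = 5). Nucleotides 547, 234, 532, 533, 293 and 294 had their highest share of 18S score in non-transfected 1 and their lowest in non-transfected 2. The rest of the 12 did not show this order. The differences between the first 4 in mean share, 0.609%, 0.583%, 0.616% and 0.631%, were below the SD of each.

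The same nucleotides recurred between libraries. Of the 258 nucleotides, 77 (29.8%) were listed in all 5 DENR libraries, 78 in 4, 40 in 3, 28 in 2 and 35 in 1. Over the series 8.27% of positions were listed in all 5 and 65.4% in 1 only, and in the rest of the 18S copy these were 28.4% and 18.2%. The share in all 5 was thus near that of the rest of 18S rRNA and above that of the series as a whole. The 77 shared nucleotides carried 73.4%, 61.6% and 67.0% of the domain's score after overexpression and 81.0% and 52.9% without. Of the 78 nucleotides in 4 lists, 49 were missing from non-transfected 1 alone and 27 from DENR overexpressing 1 alone, and 126 nucleotides were shared by the other 4 libraries when non-transfected 1 was left out.

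**Figure D4:**
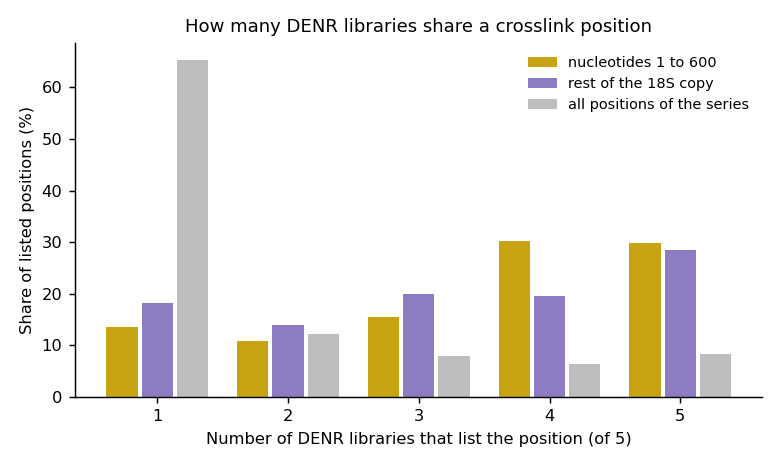
Share of listed positions (y axis, percent) by the number of DENR libraries that listed them (x axis), for the 5′ domain, the rest of the 18S copy and all positions of the series. In the 5′ domain 30.2% and 29.8% were in 4 and 5 libraries, while 65.4% of all positions were in 1 only.

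Pairs of libraries shared 91.1 ± 8.80% of the shorter list (10 pairs, range 67.8 to 97.5). The lowest pair was DENR overexpressing 1 and non-transfected 1, with 80 shared nucleotides of 142 and 118 (67.8% of the shorter). Spearman's rho of score over shared nucleotides was between 0.59 and 0.90. This is a description across nucleotides, which are not independent. Pairs within a group shared 94.4 ± 3.73% (n = 4) and pairs between groups 88.9 ± 10.8% (n = 6), which include the lowest pair. Mean rho was 0.730 within and 0.733 between groups. The lowest rho was that of the 2 non-transfected libraries, and the highest that of DENR overexpressing 2 and non-transfected 2. Pairs reuse the same 5 libraries, so these SDs are descriptive and no group difference is read from them.

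Few of the shared nucleotides separated the 2 kinds of DENR library. With scores taken as a share of each list, 6 of the 77 (7.79%) were higher in all 3 overexpressing than in both non-transfected libraries, where 4.94% of the 1925 series positions listed in all 5 were. In the opposite direction it was 9 of 77 (11.7%), against 9.09% for the series. In the rest of the 18S copy 2.27% of such positions were higher and 10.8% lower. Taken as a share of the 18S score instead, 3 of the 77 (3.9%) were higher and 15 (19.5%) lower, against 3.41% and 14.8% in the rest of the copy, so the split moved with the scale. Of the 6 nucleotides higher by list share, 1 (nucleotide 296) was also higher by share of the 18S score. Its scores were 6, 37 and 29 after overexpression and 2 and 13 without. Of the 9 lower by list share, 7 were lower on both scales, at nucleotides 231, 237, 306, 371, 381, 382 and 392. With shares near those of the series, nothing is read from these single nucleotides.

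The listed nucleotides held more uracil and adenine than the domain as a whole in all 5 DENR libraries. Uracil made up 21.5% of the 600 nucleotides and 28.9 ± 2.46% of the listed ones (n = 5, 26.7 to 33.1), an excess of 7.38 percentage points seen in 5 of 5 libraries (exact sign-flip permutation test, two-sided, p = 0.0625, the smallest possible, adjusted p = 0.190). Against the 273 nt spanned by the blocks of sites, an alternative added after the values were seen, the excess was 2.87 points, so the larger part of it lay in where the blocks are. Adenine was at 22.3% of the domain and 25.8 ± 2.16% of the listed nucleotides, above composition in 5 of 5. Cytosine was at 28.2% and 23.6 ± 1.86%, and guanine at 28.0% and 21.7 ± 2.71%, both below composition in 5 of 5. These 3 bases lay on the same side of composition in the rest of the 18S copy, where adenine made up 22.9% of nucleotides and 29.1 ± 2.29% of listed ones. In the rest of the 18S copy the uracil share was 22.1% of nucleotides and 23.1 ± 1.37% of listed ones. The excess in the 5′ domain was greater than that in the rest by 6.36 ± 2.41 percentage points, in 5 of 5 libraries (exact sign-flip permutation, p = 0.0625, the smallest possible, not adjusted). This contrast is against the composition of each whole stretch. An excess against blocks was not computed for the rest, so the part of block placement in it was not tested.

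**Figure D5:**
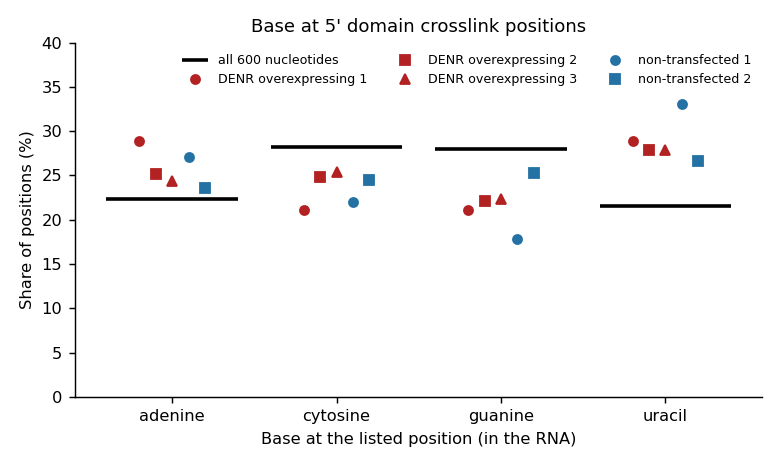
Share of each base (y axis, percent) at the listed nucleotides of the 5′ domain, by library, with the composition of all 600 nucleotides as a black line. Uracil and adenine lie above the line in all 5 DENR libraries and cytosine and guanine below it.

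Of the 77 nucleotides listed in all 5 libraries, 25 were adenine, 24 uracil, 17 guanine and 11 cytosine. Of the 12 with the lowest mean rank, 6 were uracil and 4 adenine. Part of this can be seen in the capitals above, where short T and A runs are marked, but the printed sequences do not hold all 77 nucleotides. Several of the 12 are direct neighbours, so they are not separate sites.

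At its 3′ border the domain ended in a gap. The last sites inside were nucleotides 547, 548 and 549, and the last of these had scores of 9, 26 and 34 after overexpression and 2 and 16 without. The first sites beyond nucleotide 600 were at 635, where DENR overexpressing 2 and 3 and non-transfected 2 had scores of 9, 5 and 9, and at 636 and 637. No site lay within 34 nt of the border on either side, so a border moved by that much would choose the same sites. A border placed farther downstream would take in more, since nucleotides 601 to 700 held 4.90 ± 1.62% of the 18S score (n = 5). Where the folded domain ends was not examined. The longest gap without a site in any library was nucleotides 409 to 501, which are 93 nt with a GC share of 60.2%, followed by nucleotides 1 to 67 and 550 to 600, with 44.8% and 45.1%. Whether reads could be placed in these gaps was not tested.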

How the data were processed

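Crosslink sites were taken from the 7 deposited lists, 1 per library (DENR overexpressing 3, non-transfected 2, IgG 2), grouped by sample titles. By the methods, the authors removed duplicates by molecular identifier, aligned reads to mm10 with Bowtie allowing 2 mismatches (the submitters' processing notes name Bowtie2) and called sites per library with iCount peaks, at a flank of 15 nt; the list headers give 100 permutations and a false discovery rate of 0.05. The methods state that regions were treated as one, the track lines of 6 lists that they were treated separately, and the list of DENR overexpressing 2 has no track line. The deposited value is a score, the height of a site, with the strand as its sign. It is not scaled to library size, and the depth of the libraries is unknown.

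Sites were counted by identical position and strand, and scores were summed and divided by the total of the 18S copy, the domain or the list. Groups were compared by exact permutation of libraries and stretches within libraries by exact sign-flip permutation, both two-sided, with Benjamini-Hochberg adjustment over 8 tests. Named were the 12 best-ranked nucleotides by score, averaged over libraries and limited to those in all 5 DENR lists, the stretches (up to 6, of which 5 existed), any IgG site, the sites nearest the border and the 3 longest gaps. Nucleotides 407, 106 and 296, the window from 1073, the pair of windows from 201 and 501 and the parts of stretches were chosen after their values were seen. Members and lists were chosen with earlier results of these data known. Sequence came from the GENCODE M21 transcript of CT010467.1, reverse complemented. Functions were tested on simulated data. Tools were Python 3.11.15, numpy 2.4.6, pandas 2.3.3, scipy 1.17.1 and blastn 2.17.0. Alternatives were a minimum score of 10, sites within 15 nt merged, weighting by score, neighbouring bases, removal of the highest window, the replicate block and leaving out each library.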

Additional observations from a re-analysis of the deposited data

How the results depend on the processing

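No test could reach 0.05 in this design, so alternatives are read for direction and size only, and the comparisons with IgG, where the domain holds 0 in every setting, had no direction to lose. Of 62 alternative values for the other differences and the count of shared nucleotides, 48 kept direction or size, 12 changed sign and 2 moved. The difference between overexpressing and non-transfected libraries in the domain's share of 18S sites was 0.553 percentage points at a minimum score of 10, 1.31 with sites within 15 nt merged, and -1.73 to 1.59 on leaving out 1 library (1.10 without DENR overexpressing 2, 0.0681 without DENR overexpressing 3, 1.59 without non-transfected 1). That in 18S score was 0.635 at a minimum score of 10 and -3.51 to 1.18 on leaving out 1 library (0.0274 without DENR overexpressing 1, 1.18 without non-transfected 1). That in listed sites was 0.0292 with sites merged and -1.27 to -0.20 on leaving out 1 library. The log2 ratio of site density was 0.34 with sites merged (p = 0.0625, exact sign-flip permutation test) and 0.25 without the highest window; the cause was not tested. The number of nucleotides in all 5 libraries was 14 at a minimum score of 10 and 77 to 126 on leaving out 1 library (126 without non-transfected 1, 104 without DENR overexpressing 1). For the score density and the uracil excess, no alternative changed the direction. The uracil excess was 11.8 at a minimum score of 10, 13.3 weighted by score and 2.87 against the blocks. The share of listed sites, DENR minus IgG, was 5.68 at a minimum score of 10 and 0.451 with sites merged, and cutting the DENR lists to 234 sites gave 4.70, and 9.39 for the 18S score. With the replicate block the difference in 18S sites was 0.0681, that in 18S score -1.30 and that in listed sites -0.46, and the block changed no other sign. Over the 77 shared nucleotides the deviations of same-numbered overexpressing and non-transfected libraries correlated at 0.107 and 0.320, and with 2 pairs the numbers were not taken as a pairing.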

Other observations

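Some runs of sites belonged to 1 library. Non-transfected 2 alone listed 13 nucleotides from 68 to 83, with a summed score of 120 (3.70% of its domain score) and a highest score of 27 at nucleotide 76. It also alone listed 7 nucleotides from 502 to 510, with a summed score of 118 (3.64%), of which 65 lay on nucleotide 503.

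Trinucleotides of the domain were also counted by how often their middle nucleotide was listed, a search over 64 motifs on the strand of the RNA, made after the data were seen and given without a test. The middle nucleotide was listed in all 5 DENR libraries in 4 of 7 TTT and in 5 of 11 AAA occurrences, which can overlap each other in longer runs. It was so listed in 0 of 25 GGG and 0 of 18 CCC occurrences, and in any library in 1 and 3 of them. Other motifs did not all follow their bases. ATA had 3 of 6 in all 5 libraries, but GAA had 0 of 8, ATT 1 of 8 and GGT 4 of 13. The part that the placement of the blocks of sites had in these counts was not tested. Of all 600 nucleotides, 12.8% were listed in all 5 and 43% in any. The nucleotide 1 nt downstream of a listed one was guanine in 16.4 ± 4.09% of cases (n = 5), against 28.0% of the domain, and in 25.4 ± 1.05% in the rest of the 18S copy, against 29.8% there.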
